A study of Homo sapiens with 6 samples.

Results

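The transcripts described here are those of 10 genes of stalled-ribosome rescue and nascent-chain quality control: PELO, HBS1L, ABCE1, GTPBP1, GTPBP2, ZNF598, ASCC3, NEMF, LTN1 and TCF25. They were taken by name from a table of 19330 genes, and all 10 were found there and passed the filter on low counts. K562, an established human erythroleukemia line, was transduced with pLentiCRISPRv2, a lentivirus that carries Cas9 and an sgRNA. The sgRNA was directed at N6AMT1 (sgN6AMT1, 3 libraries) or, as control (sgCtrl, 3 libraries), at OR11A1 and the gene that the labels spell OR2M49. Cells of both conditions had been selected with puromycin and were collected 10 days after infection. They are transduced populations, and the sources used here do not say which sgRNA went into which library. The RNA came from lysates cleared by centrifugation in the presence of cycloheximide, and rRNA was depleted with a stranded total RNA kit, although the labels enter the molecule as polyA RNA.

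A ribosome that stops within an mRNA blocks those that follow it. Collided ribosomes are recognized by the E3 ubiquitin ligase ZNF598 and taken apart by a complex built around the helicase ASCC3. PELO, with its GTPase partner HBS1L and the ATPase ABCE1, splits ribosomes that have stopped with an empty A site. The nascent chain left on the large subunit is bound by NEMF, which recruits the E3 ligase LTN1, and TCF25 works with LTN1. PELO is related to the release factor eRF1, the product of ETF1 and a substrate of the methyltransferase N6AMT1. HBS1L is related in the same way to eRF3, the product of GSPT1. The comparison asks whether transcripts of this pathway differ between control and N6AMT1-depleted cells.

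The libraries held between 742470 and 5526904 counts, and sgN6AMT1 replicates 2 and 3 were the deepest. Each sgN6AMT1 library (at least 959319 counts) was deeper than each sgCtrl library (at most 866894), so that depth and condition went together. The members had between 14 and 427 counts in single sgCtrl libraries. The targeted gene N6AMT1 was counted 6, 5 and 9 times in sgCtrl and 0, 18 and 16 times in sgN6AMT1. Per 1000000 counts of the library (cpm) this was 8.08 ± 2.31 and 2.40 ± 2.11 (SD, n = 3 each), without overlap between the conditions (exact permutation test, two-sided p = 0.1, its minimum for 3 libraries against 3). The count of 0 allows a level of up to 3.13 cpm, taken as 3 counts of that library's total and covering counting error only. Of 10 markers of K562, 10 were tested, and their summed level in cpm after TMM normalization (which scales library totals to one another) was 10960 to 18490 in sgCtrl libraries and 18670 to 35290 in sgN6AMT1 libraries. Of these, HBG1, HBG2 (near-identical genes, whose reads may be shared) and HBE1 were called higher (edgeR adjusted p = 0.0149, 0.0144 and 0.00414). LMO2 was called lower (edgeR adjusted p = 0.0239), and the others were not called. For HBG1 and HBG2, which made up most of the sum, the conditions overlapped. Of 10 markers of other cell types, 7 did not pass the filter and MS4A1 and CDH5 had no count, and the 10 summed to 188.6 to 210 cpm (sgCtrl) and 144 to 192.8 cpm (sgN6AMT1). Most of that sum was EPCAM, an epithelial adhesion molecule, at 139.8 to 169.6 cpm in sgCtrl and 98.2 to 157 cpm in sgN6AMT1 (not called, edgeR adjusted p = 0.228). The part of these marker levels in the differences below was not tested.

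Of the 10 members, 1 passed the test, PELO, which was higher in sgN6AMT1, and none was called lower. Genes were called by the quasi-likelihood test of edgeR, at an adjusted p (Benjamini-Hochberg, all tested genes) under 0.05. Across the 8324 genes tested, 9.85% were called, and 5.09% were called with a higher level in sgN6AMT1, so that the members were called about as often as genes at large. The sgCtrl and sgN6AMT1 libraries did not overlap for 3 members, PELO and GTPBP2 with higher and NEMF with lower values in sgN6AMT1, where 29.2% of all genes tested showed no overlap. Of the members, 7 had a negative and 3 a positive log2 fold change, with a median of -0.12 against 0.0087 for all genes tested. The median, the signs and these counts describe the list and were not tested as a set.

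**Figure D1:**
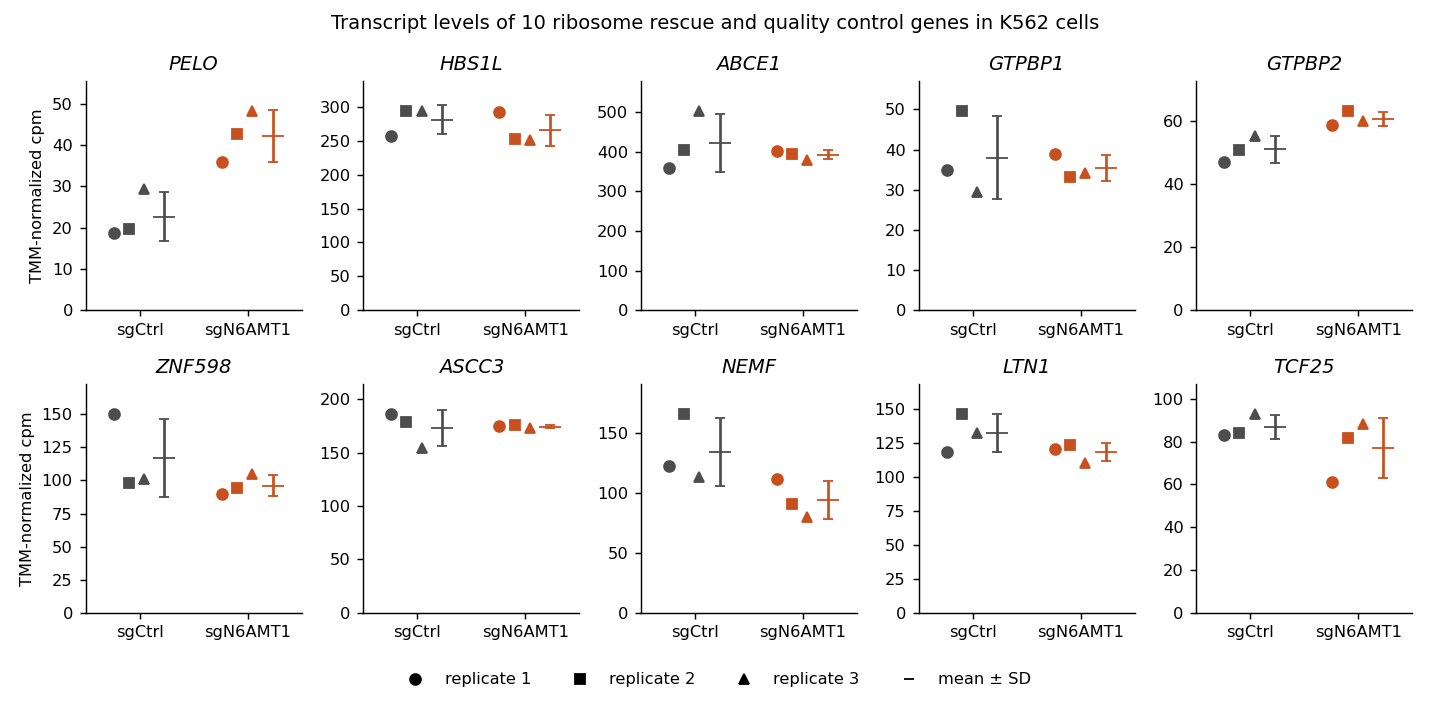
TMM-normalized counts per 1000000 (cpm, each axis from 0) of the 10 members in each of the 3 sgCtrl (grey) and 3 sgN6AMT1 (orange) libraries, with the replicate number as the symbol and the mean ± SD beside the points. The PELO values of sgN6AMT1, from 35.8 to 48.3 cpm, lie above the highest sgCtrl value of 29.5 cpm, whereas the values of HBS1L, ABCE1, GTPBP1, ZNF598, ASCC3, LTN1 and TCF25 overlap.

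PELO had 18.8, 19.6 and 29.5 TMM-normalized cpm in sgCtrl replicates 1 to 3 and 35.8, 42.7 and 48.3 cpm in sgN6AMT1 replicates 1 to 3. The lowest sgN6AMT1 library thus lay above the highest sgCtrl library. The mean rose from 22.6 ± 5.94 to 42.3 ± 6.26 cpm (SD, n = 3 each), a 1.90-fold increase with a 95% interval from 1.29 to 2.79 (log2 fold change 0.92, standard error 0.27, edgeR adjusted p = 0.0351). Among all genes tested, 3.75% had a higher log2 fold change. The level of PELO rests on few counts, 14, 17 and 25 in sgCtrl and 34, 234 and 188 in sgN6AMT1. The Wilson 95% intervals, which cover counting error only, were 11.2 to 31.7, 12.2 to 31.4 and 19.6 to 42.6 cpm of the total in sgCtrl. In sgN6AMT1 they were 25.4 to 49.5, 37.3 to 48.1 and 40.1 to 53.4, so that all 3 overlapped the interval of sgCtrl replicate 3 and replicate 1 overlapped all 3 of them. In bulk RNA, more transcript per cell and a larger share of cells with a high level cannot be told apart.

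The size of the PELO difference varied little with the processing, and its call varied with it. Over 16 other settings of the fit the log2 fold change lay between 0.81 and 1.16, always positive, and 10 of the 16 gave an adjusted p under 0.05. Because the conditions did not overlap for PELO, leaving out a single library could not turn that sign. With DESeq2, the method that the paper used for differential expression, PELO was not called (0.89, standard error 0.33, DESeq2 adjusted p = 0.0785). Thinning sgN6AMT1 replicates 2 and 3 to 866524 counts gave 0.93 (edgeR adjusted p = 0.0584). The edgeR call was also lost without sgCtrl replicate 1 (adjusted p = 0.126), without sgCtrl replicate 2 (0.163), without sgN6AMT1 replicate 2 (0.088) and without sgN6AMT1 replicate 3 (0.093). PELO (GRCh38 chromosome 5, 52787916 to 52804044, plus strand) shares its first annotated base with ITGA1, with 499 bases of exon in common. ITGA1 was counted 0, 0 and 0 times in sgCtrl and 2, 1 and 0 times in sgN6AMT1, and how the authors' counting assigned reads on the shared bases is not given in the sources used here. PELO also shares 72 exonic bases with PELO-AS1, a long noncoding RNA gene on the opposite strand.

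The partner of PELO, HBS1L (chromosome 6, 134960378 to 135103056, minus strand), had 257, 294 and 294 TMM-normalized cpm in sgCtrl and 292, 253 and 252 cpm in sgN6AMT1. The conditions overlapped, and the log2 fold change was -0.09 with a 95% interval from -0.39 to 0.21 (edgeR adjusted p = 0.735). ABCE1 (chromosome 4, 145098288 to 145129524, plus strand), which encodes the ATPase that also recycles ribosomes after normal termination, had 359, 405 and 503 cpm in sgCtrl and 403, 394 and 380 cpm in sgN6AMT1. All 3 sgN6AMT1 values of ABCE1 lay within the range of the sgCtrl values. Its log2 fold change was -0.11 with an interval from -0.42 to 0.20 (edgeR adjusted p = 0.695).

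The promoter regions of these 3 members are shown because PELO differed between the conditions while the transcripts of its partners HBS1L and ABCE1 were not called. Each run holds 250 bases before and 50 bases from the RefSeq start on, on the strand of the gene, in GRCh38.p14. They span chr5:52787666-52787965 (plus) for PELO, chr6:135054773-135055072 (minus) for HBS1L and chr4:145098061-145098360 (plus) for ABCE1. The RefSeq start used for HBS1L, 135054822, lies inside the GENCODE gene span given above and not at its upstream end. Capitals mark matches to any of 8 motifs searched on both strands, and matches may overlap.
PELO: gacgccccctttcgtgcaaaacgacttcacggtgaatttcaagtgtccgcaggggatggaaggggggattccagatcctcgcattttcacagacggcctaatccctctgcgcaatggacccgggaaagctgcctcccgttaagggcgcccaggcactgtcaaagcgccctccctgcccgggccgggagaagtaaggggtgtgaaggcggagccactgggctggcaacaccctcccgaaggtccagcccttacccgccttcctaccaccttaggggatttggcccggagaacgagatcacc
HBS1L: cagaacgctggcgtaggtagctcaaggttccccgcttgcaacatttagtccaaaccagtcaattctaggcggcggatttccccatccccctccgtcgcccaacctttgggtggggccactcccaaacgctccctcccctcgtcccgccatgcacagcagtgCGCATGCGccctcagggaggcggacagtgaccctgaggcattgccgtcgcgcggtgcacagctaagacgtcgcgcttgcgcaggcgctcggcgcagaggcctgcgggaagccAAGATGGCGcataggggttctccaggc
ABCE1: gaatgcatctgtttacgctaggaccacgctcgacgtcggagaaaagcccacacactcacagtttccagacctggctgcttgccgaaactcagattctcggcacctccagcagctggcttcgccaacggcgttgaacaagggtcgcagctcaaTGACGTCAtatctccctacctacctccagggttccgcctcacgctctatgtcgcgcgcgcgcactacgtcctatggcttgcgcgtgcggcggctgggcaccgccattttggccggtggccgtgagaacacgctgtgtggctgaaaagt

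The motifs were TGACGTCA (CRE), CACGTG (E-box), CCGGAAG (ETS), AAGATGGCG (YY1), CGCATGCG (NRF1), TGATGNAA (the core of the CARE element bound by ATF4), CCAAT and GGGCGG (GC box). In the HBS1L window, CGCATGCG starts 89 bases before the start and AAGATGGCG 23 bases after it. The ABCE1 window holds TGACGTCA, 98 bases before the start. None of these letters occurs in the PELO window. Among 35116 promoter windows of the same length, CGCATGCG was found in 2.02%, AAGATGGCG in 1.75% and TGACGTCA in 1.85%. Of the 9 members with a window, 4 held GGGCGG (45% of all windows), 3 CCAAT (34.6%), 2 CCGGAAG (10.3%) and 2 AAGATGGCG, while CACGTG (7.26%) and TGATGNAA (3.62%) were found in none. These matches describe letters in a window and no binding was measured. A link between them and the PELO difference was not tested.

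GTPBP1 and GTPBP2 encode related GTPases with a part in resolving stalled ribosomes, GTPBP2 as a binding partner of PELO. GTPBP2 (chromosome 6, 43605316 to 43629264, minus strand) had 47.0, 50.8 and 55.4 TMM-normalized cpm in sgCtrl and 59.0, 63.3 and 60.2 cpm in sgN6AMT1. These values did not overlap, but the difference of 0.26 on the log2 scale did not pass the test (95% interval -0.16 to 0.67, edgeR adjusted p = 0.444). GTPBP1 (chromosome 22, 38705742 to 38738299, plus strand) had 34.9, 49.6 and 29.5 cpm in sgCtrl and 39.0, 33.0 and 34.2 cpm in sgN6AMT1, with all sgN6AMT1 values inside the sgCtrl range. Its log2 fold change of -0.13 had the widest interval among the members not called, from -0.65 to 0.39 (edgeR adjusted p = 0.792). GTPBP2 shares 30 exonic bases with POLH on the opposite strand, which had a log2 fold change of 0.67 (edgeR adjusted p = 0.124).

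Among the factors that act on collided ribosomes, ZNF598 (chromosome 16, 1997654 to 2009821, minus strand) had 150.5, 98.1 and 101 TMM-normalized cpm in sgCtrl and 89.6, 94.0 and 105 cpm in sgN6AMT1. The sgCtrl mean was set apart by replicate 1, and the other sgCtrl libraries lay within the sgN6AMT1 range. The log2 fold change of -0.26 (interval -0.65 to 0.12, edgeR adjusted p = 0.390) became -0.05 without sgCtrl replicate 1. ZNF598 shares 503 exonic bases with a long noncoding RNA gene on the opposite strand, for which no counts were found. ASCC3 (chromosome 6, 100508194 to 100881372, minus strand) had 187, 179 and 154 cpm in sgCtrl and 175, 176 and 173 cpm in sgN6AMT1. Its log2 fold change of 0.01 was the smallest in size among the members, with an interval from -0.30 to 0.33 (edgeR adjusted p = 0.971), and its sign turned with the scaling.

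**Figure D2:**
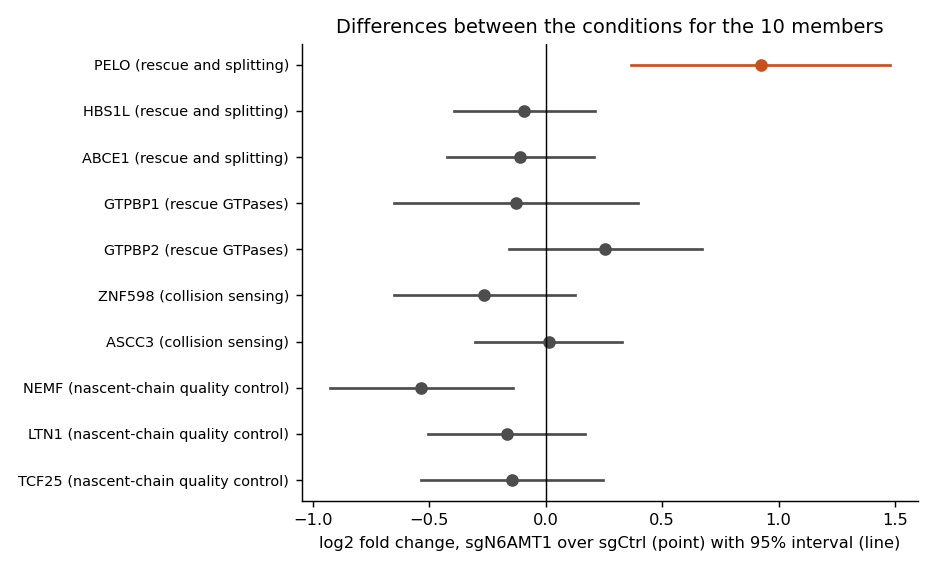
Log2 fold change of sgN6AMT1 over sgCtrl for each member (points) with its 95% interval from the edgeR fit (lines), in orange where the adjusted p was under 0.05 and in grey otherwise. PELO is the orange member, at 0.92 with an interval from 0.36 to 1.48, and NEMF at -0.54 is the lowest.

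Of the nascent-chain factors, NEMF (chromosome 14, 49782083 to 49852821, minus strand), which adds tails to chains stuck on the large subunit, had 122, 166 and 113 TMM-normalized cpm in sgCtrl. In sgN6AMT1 it had 112, 90.7 and 80.2 cpm. Each sgN6AMT1 value was below each sgCtrl value, although sgN6AMT1 replicate 1 and sgCtrl replicate 3 were 1.48 cpm apart. The means were 133.9 ± 28.3 and 94.2 ± 16.0 cpm (SD, n = 3 each), with a log2 fold change of -0.54 (standard error 0.19, 95% interval -0.93 to -0.14) that did not pass the threshold over all genes (edgeR adjusted p = 0.0754, unadjusted p = 0.0101). It passed without sgN6AMT1 replicate 1 (adjusted p = 0.0388) and without a filter on low counts (0.0456). Without sgCtrl replicate 2, its highest library, the log2 fold change was -0.35 (adjusted p = 0.382), and leaving out any other single library gave values from -0.65 to -0.44. With offsets for the GC content and length of the transcripts, the log2 fold change of NEMF was -0.33 (adjusted p = 0.195). The NEMF transcript has a GC content of 36.6%, and 2250 of its exonic bases lie within exons of KLHDC2 on the opposite strand. KLHDC2 had 21.5, 20.8 and 30.7 cpm in sgCtrl and 37.9, 22.5 and 33.2 cpm in sgN6AMT1 (log2 fold change 0.30, edgeR adjusted p = 0.568). The libraries were stranded, but whether the counting used the strand is not given in the sources used here.

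LTN1, the ligase that NEMF recruits, had 118, 147 and 132 TMM-normalized cpm in sgCtrl and 120, 124 and 111 cpm in sgN6AMT1. The conditions overlapped, with a log2 fold change of -0.17 (interval -0.50 to 0.17, edgeR adjusted p = 0.552). LTN1 lies on chromosome 21 from 28928144 to 28992956 on the minus strand, 42.8 kb from N6AMT1, and is its nearest neighbour among the genes of the table. TCF25 (chromosome 16, 89873570 to 89913627, plus strand) had 83.3, 84.2 and 93.1 cpm in sgCtrl and 61.1, 81.6 and 88.2 cpm in sgN6AMT1. In sgN6AMT1, replicate 1 was the low library for TCF25. The log2 fold change was -0.14 (interval -0.54 to 0.25, edgeR adjusted p = 0.672), and -0.038 without that library. TCF25 shares 164 exonic bases with a long noncoding RNA gene on the same strand, for which no counts were found. For the 9 members not called, no 95% interval of the fit as reported reached 1 or -1 on the log2 scale, that is, a doubling or its opposite. Under the other settings the log2 fold change of NEMF ran from -0.65 to -0.33, and the intervals of those fits are not given here.

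**Figure D3:**
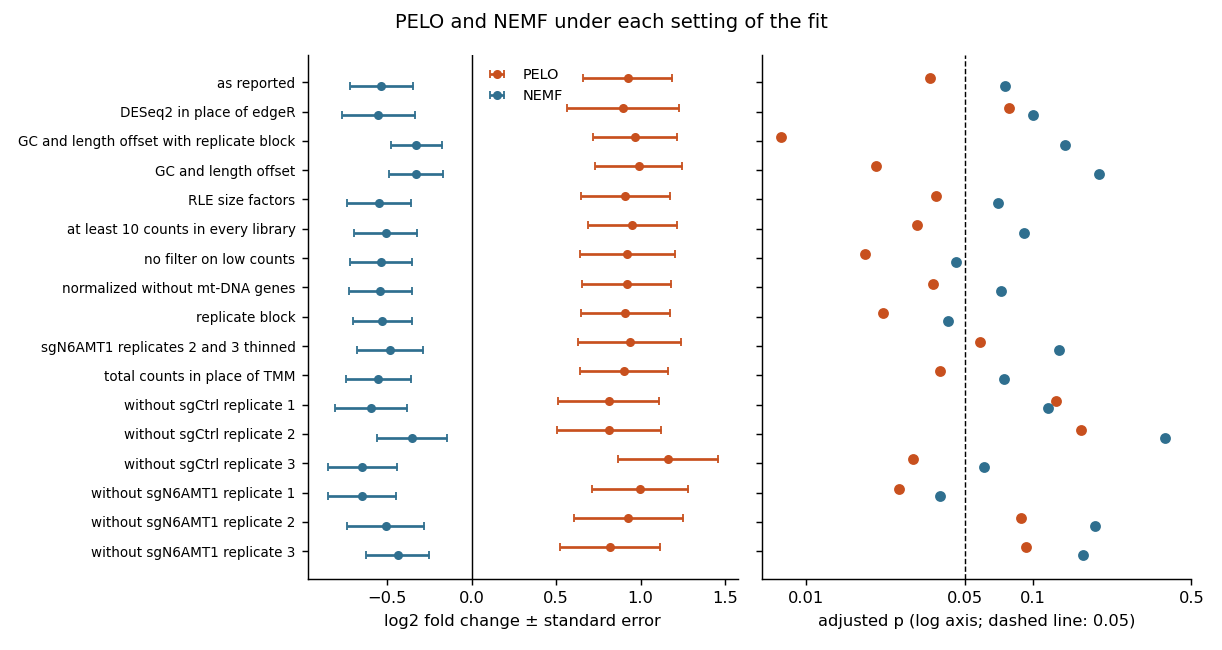
Log2 fold change ± standard error (left) and adjusted p on a log axis (right) of PELO (orange) and NEMF (blue) as reported and under each other setting, with a dashed line at an adjusted p of 0.05. The fold change of PELO stays between 0.81 and 1.16 and that of NEMF between -0.65 and -0.33, while the adjusted p of each lies on either side of the line.

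Members that act together were also compared within each library, as the ratio of their counts, which needs no scaling between libraries. The ratio of PELO to HBS1L was 0.0733, 0.0667 and 0.100 in sgCtrl and 0.123, 0.169 and 0.192 in sgN6AMT1. Each of the 3 sgN6AMT1 libraries lay above the sgCtrl libraries, and the mean ratio was 2.01-fold higher. The ratio of ABCE1 to PELO was 19.1, 20.7 and 17.1 in sgCtrl and 11.2, 9.23 and 7.86 in sgN6AMT1, again without overlap, 0.495 times the sgCtrl ratio. Both ratios hold the same PELO counts and are not independent. Two-sided exact permutation tests gave p = 0.1 for each, the smallest p that 3 libraries against 3 allow, and 0.25 after Benjamini-Hochberg adjustment over 5 ratios. The other ratios overlapped between the conditions. NEMF to LTN1 was 1.03, 1.13 and 0.857 in sgCtrl and 0.930, 0.734 and 0.726 in sgN6AMT1 (exact permutation p = 0.2, adjusted 0.25). ASCC3 to ZNF598 was 1.24, 1.82 and 1.52 in sgCtrl and 1.95, 1.87 and 1.65 in sgN6AMT1 (exact permutation p = 0.2, adjusted 0.25). GTPBP2 to GTPBP1 was 1.35, 1.02 and 1.88 in sgCtrl and 1.51, 1.92 and 1.76 in sgN6AMT1 (exact permutation p = 0.3, adjusted 0.3).

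The levels of the members were compared with each other per kilobase of the canonical transcript, which runs from 2.25 kb in TCF25 to 8.11 kb in ASCC3. In sgCtrl, ABCE1 was highest at 108.7 ± 19.0 TMM-normalized cpm per kb (SD, n = 3), and no sgCtrl library of ABCE1 overlapped those of the next member. HBS1L, TCF25 and ZNF598 followed at 39.7, 38.7 and 34.7 cpm per kb, and these neighbours overlapped. NEMF, ASCC3, LTN1 and GTPBP2 came next at 23.0, 21.4, 17.2 and 16.9 cpm per kb, each overlapping the next. GTPBP1 at 7.75 ± 2.12 and PELO at 5.18 ± 1.36 cpm per kb were the lowest and overlapped. In sgN6AMT1, PELO was at 9.68 ± 1.43 and GTPBP1 at 7.22 ± 0.64 cpm per kb. In sgCtrl, ABCE1 lay above 90.8% and PELO above 17.4% of the tested genes with a transcript length, and in sgN6AMT1 above 90.3% and 35.9%. PELO thus had the lowest mean level per kb of the 10 in control cells, below HBS1L and ABCE1 in every library and overlapping GTPBP1.

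**Figure D4:**
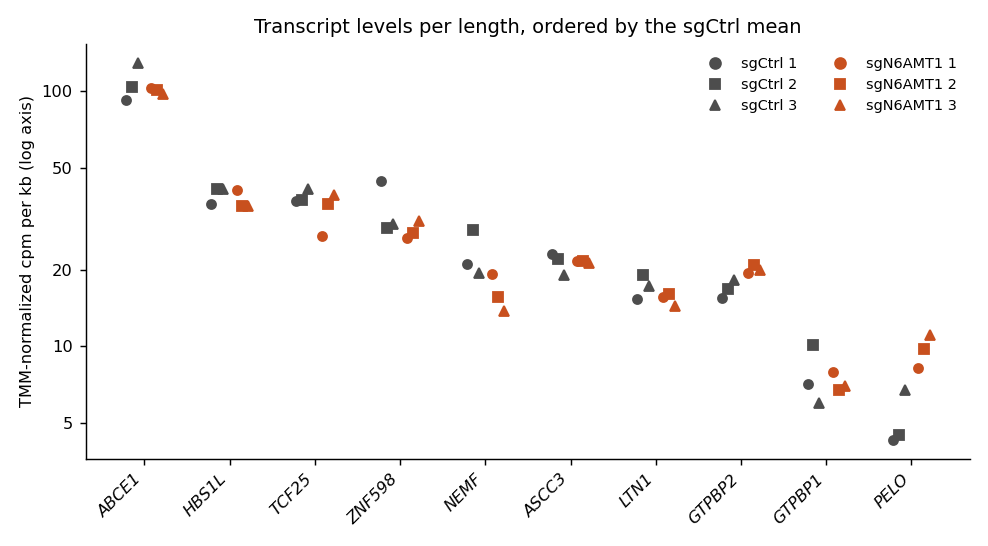
TMM-normalized cpm per kb of the canonical transcript on a log axis, for each sgCtrl (grey) and sgN6AMT1 (orange) library, with the replicate number as the symbol and members ordered by their sgCtrl mean. ABCE1 stands highest, and PELO is lowest in sgCtrl at 4.30 to 6.74 and at 8.20 to 11.1 in sgN6AMT1.

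The transcripts also differed in base composition. The GC content of the canonical transcript was between 35.5% and 39.7% in ABCE1, NEMF, LTN1, HBS1L and ASCC3, 45.4% in PELO, and between 56.0% and 65% in GTPBP2, GTPBP1, TCF25 and ZNF598. With each library corrected for GC content and length, PELO had a log2 fold change of 0.99 (edgeR adjusted p = 0.0203). In that fit HBS1L, ABCE1 and LTN1 had values of 0.11, 0.09 and 0.05 in place of negative ones, and none of these was called. ZNF598 and TCF25 had -0.39 and -0.32 (adjusted p = 0.123 and 0.232).

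Further genes of the pathway were followed with 5 lists of 56 genes, of which 53 were found in the table and 48 were tested. Of these, 2 were called, RNF14 and RNF10, both higher in sgN6AMT1, and none was called lower, against the 9.85% of all genes called. The median log2 fold change over the 48 genes was -0.02, and 23 were positive and 25 negative. RNF14 encodes an E3 ubiquitin ligase that, with RNF25, marks translation factors trapped in the A site of stalled ribosomes. It had 92.7, 78.5 and 87.2 TMM-normalized cpm in sgCtrl and 162, 156 and 149 cpm in sgN6AMT1. The conditions were well apart, with a log2 fold change of 0.85 (standard error 0.16, interval 0.51 to 1.19, edgeR adjusted p = 0.00389), and RNF14 was called in each of the 16 other settings. RNF10 encodes an E3 ligase that modifies proteins of the small ribosomal subunit. It rose from 255.9 ± 28.8 to 375.9 ± 28.4 cpm (SD, n = 3 each), with a log2 fold change of 0.55 (standard error 0.15, interval 0.25 to 0.86, edgeR adjusted p = 0.0243), and it was called in 15 of the 16 settings, the exception being the fit without sgCtrl replicate 2 (adjusted p = 0.16). Besides these genes, RNF25 and ASCC1 had an unadjusted p under 0.05 in the list of collision sensing, and both are named to complete that count. RNF25 had 16.1, 18.5 and 20.0 cpm in sgCtrl and 22.1, 25.4 and 39.3 cpm in sgN6AMT1, and its log2 fold change of 0.71 was not called (interval 0.06 to 1.36, edgeR adjusted p = 0.153). ASCC1, which encodes a subunit of the complex of ASCC3, had 34.9, 47.3 and 50.7 cpm in sgCtrl and 34.8, 26.3 and 31.6 cpm in sgN6AMT1. Its log2 fold change of -0.56 lay in the other direction and was not called either (interval -1.07 to -0.05, edgeR adjusted p = 0.15).

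By list, RNF10 and RNF14 were the called genes among 15 tested that sense collisions or act upstream of rescue, a list with 7 positive and 8 negative log2 fold changes. In the other lists no gene was called by edgeR. Counts of an unadjusted p under 0.05 are read against the 26.2% of all tested genes that had one, and none of the lists below was tested against that share. Among 7 tested genes of termination and recycling, 1 had an unadjusted p under 0.05, GSPT1. GSPT1, which encodes the eRF3 partner of eRF1, had 348, 375 and 257 cpm in sgCtrl and 267, 252 and 195 cpm in sgN6AMT1 (log2 fold change -0.46, interval -0.82 to -0.11, edgeR adjusted p = 0.0855). ETF1 had a log2 fold change of -0.05 (interval -0.34 to 0.24, edgeR adjusted p = 0.861) and DENR, a recycling factor, one of -0.21 (interval -0.59 to 0.16, edgeR adjusted p = 0.475).

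Among 6 tested genes of nascent-chain extraction and release, 5 were positive, with a median of 0.22, and 2 had an unadjusted p under 0.05. These were VCP, the ATPase that extracts ubiquitylated chains, at 0.50 (edgeR adjusted p = 0.0742), and ANKZF1, which cleaves the chain from its tRNA, at 0.66 (adjusted p = 0.170). VCP had 300, 332 and 310 cpm in sgCtrl and 355, 386 and 586 cpm in sgN6AMT1, so that sgN6AMT1 replicate 3 was set apart. Among 14 tested genes of mRNA decay, 3 had an unadjusted p under 0.05. EXOSC5, an exosome subunit, had 0.96 (edgeR adjusted p = 0.0989), on 10, 7 and 16 counts in sgCtrl. SKIV2L, the helicase of the Ski complex, had 0.53 (edgeR adjusted p = 0.158). For both genes the conditions overlapped. The third was EXOSC3, named because it completes this count, at -0.38 (adjusted p = 0.171). Of 6 tested genes of mitochondrial ribosome rescue and release, none had an unadjusted p under 0.05. The smallest p-values there were those of MTRF1 at -0.44 (interval -1.15 to 0.27, edgeR adjusted p = 0.440) and GFM2 at -0.20 (interval -0.55 to 0.15, edgeR adjusted p = 0.472).

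**Figure D5:**
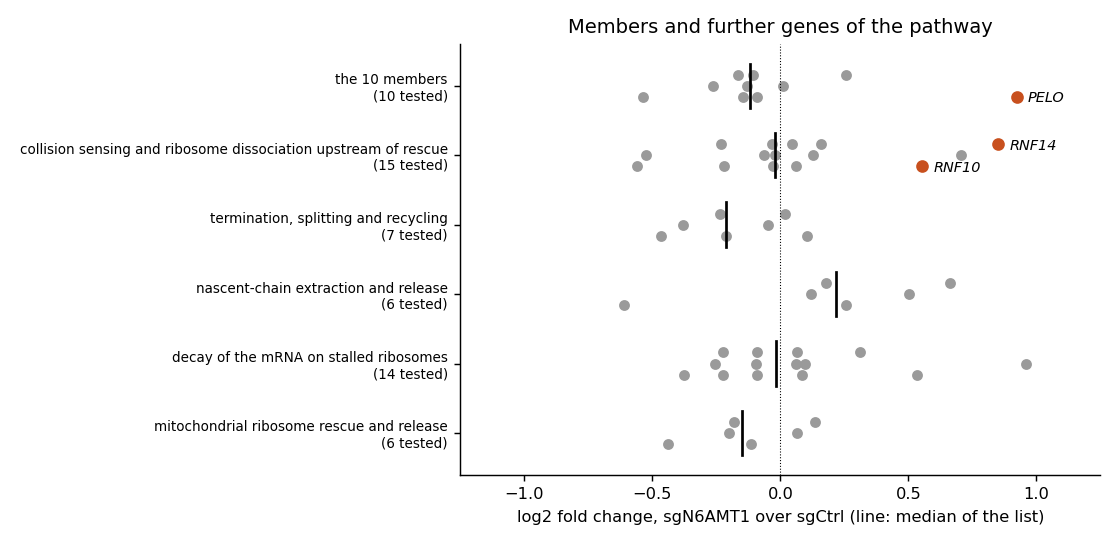
Log2 fold change of sgN6AMT1 over sgCtrl for the 10 members and for the tested genes of 5 further lists of the pathway, with the median of each list as a black line and called genes (edgeR adjusted p under 0.05) in orange and named. PELO at 0.92, RNF14 at 0.85 and RNF10 at 0.55 are the called genes.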

How the data were processed

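RNA-Seq libraries of K562 cells, 3 sgCtrl and 3 sgN6AMT1, were analysed, grouped by their titles. Per the paper's methods and the labels' processing notes, the authors trimmed reads with cutadapt, mapped them with HISAT2 to GRCh38 and deposited raw counts per gene symbol. Their differential expression analysis used DESeq2, which is an alternative here. The counting tool, its use of strand and its treatment of reads with several positions are not given in the sources used here.

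From the counts, genes were filtered with filterByExpr, TMM-scaled, fitted (glmQLFit) and tested (glmQLFTest) by edgeR (version 4.0.16, under R 4.3.3), and no covariate was used. The Benjamini-Hochberg adjustment covered 8324 genes. Intervals are 95% intervals from the standard error and the degrees of freedom of the fit. On counts simulated for sgN6AMT1 against sgCtrl, edgeR called 78 of 100 genes with a simulated log2 change of 1, 99 of 100 with one of 2 and 9 of 8048 unchanged genes, and the intervals held the true value for 88% of the genes with a change of 1. The simulation gave every gene the same variation between replicates (biological coefficient of variation 0.16) and changed only genes above a minimum expected count. It does not give the power for single members, whose own variation was not simulated. Exact permutation tests were run in Python 3.11.15. Positions and transcript lengths are from GENCODE 44 (GRCh38), promoters from RefSeq (GRCh38.p14, 9 of 10 members matched).

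The members and lists were chosen with earlier results of these data known. Genes named are the members and, of each further list, every called gene or, where there was none, the 2 genes with the smallest p, as well as N6AMT1, ETF1 and GSPT1. RNF25, ASCC1, EXOSC3, EPCAM and the neighbours of N6AMT1 were named after their values were seen. RACK1, MAP3K20 and EXOSC4 were not analysed here. OTUD3, GSPT2, EXOSC6 and MTRES1 did not pass the filter, and a further listed gene is not reported here. The alternatives were DESeq2 1.42.0, other scalings, filters and thresholds, thinning, a GC content and length offset (8160 genes), a replicate block, and each library left out. Libraries are separate transductions per the paper, and same-condition pairs differed beyond sampling noise (chi-square per degree of freedom 2.12 to 15.3).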

Additional observations from a re-analysis of the deposited data

How the results depend on the processing

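PELO, whose conditions did not overlap, kept a positive log2 fold change in all 16 other fits, RNF14 its call in all 16 and RNF10 in 15. The count of called members (1 as reported) was 0 with DESeq2, 0 with thinning and 0 at an adjusted p under 0.01, and 2 without a filter on low counts, 2 with the replicate block and 2 at an adjusted p under 0.1; with single libraries left out it ran from 0 to 2. The count of other pathway genes called (2 as reported) was 4 without a filter, 4 with the replicate block, 4 with the GC and length offset and the replicate block together, 5 at an adjusted p under 0.1 and 1 at 0.01, and ran from 1 to 4 with single libraries left out. Over all genes, 820 were called as reported, 1195 with the replicate block, 1366 with the block and the GC and length offset together, and 220 (without sgCtrl replicate 2) to 951 (without sgN6AMT1 replicate 1) with single libraries left out. The deviations of same-numbered libraries from the mean of their condition correlated at -0.000522, 0.0827 and 0.19. By this measure sgCtrl replicates 1 and 2 correlated best with sgN6AMT1 replicates 2 and 1, and sgCtrl replicate 3 with sgN6AMT1 replicate 3. With 3 libraries per condition these values cannot settle whether same-numbered libraries were paired. Signs turned for members that were not called. With the GC and length offset, and with the block added, the log2 fold changes were 0.11 and 0.10 for HBS1L, 0.090 and 0.091 for ABCE1, and 0.055 and 0.047 for LTN1. With single libraries left out, ABCE1 ran from -0.22 (without sgCtrl replicate 1) to 0.034 (without sgCtrl replicate 3), ASCC3 from -0.068 (without sgCtrl replicate 3) to 0.063 (without sgCtrl replicate 1), and GTPBP1 from -0.29 (without sgCtrl replicate 3) to 0.11 (without sgCtrl replicate 2). ASCC3 was at -0.011 with DESeq2, -0.0022 with RLE size factors, -0.017 with thinning and -0.0083 with total counts. NEMF was called with the replicate block (adjusted p = 0.0423), without a filter and without sgN6AMT1 replicate 1. Without sgCtrl replicate 1, sgN6AMT1 replicate 2 or sgN6AMT1 replicate 3, 301, 495 and 538 genes were called. Why the calls moved was not tested. The smallest count of a member in a sgCtrl library was 14, for PELO.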

Other observations

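LTN1 is 1 of 7 genes of the table within 1 Mb of N6AMT1, the gene cut by Cas9, and 5 of the 7 were tested. These genes were looked at after the position of LTN1 was seen. None of the 5 was called by edgeR, against 9.85% of all tested genes. Of the 5, 3 had a 95% interval that did not include 0, against 26.2% of all tested genes. Beyond LTN1 at 42.8 kb, RWDD2B (119 kb from N6AMT1) had a log2 fold change of 0.43 (interval -0.28 to 1.14, edgeR adjusted p = 0.450). USP16 (139 kb) had -0.49 (interval -0.83 to -0.14, edgeR adjusted p = 0.0666) and CCT8 (170 kb) had -0.33 (interval -0.64 to -0.02, edgeR adjusted p = 0.166). BACH1 (309 kb) had 0.35 (interval 0.01 to 0.69, edgeR adjusted p = 0.173). MAP3K7CL was counted 0, 0 and 0 times in sgCtrl and 0, 1 and 2 times in sgN6AMT1, and GRIK1 2, 1 and 0 against 1, 3 and 2 times. The log2 fold changes of the 5 tested neighbours had both signs, and none passed the threshold at this depth. Whether the cut acted on its neighbours was not tested.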
